A study of Homo sapiens with 9 samples.

Results

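Untreated Hep3B cells and untreated Huh7 cells, human liver cancer lines kept in culture, were compared across all genes by RNA sequencing of poly(A) RNA. The comparison used the control library of each line, 2 of the 9 libraries of the series, and no member was chosen by its value. Of 32990 genes in the count table, 11318 had at least 100 counts in 1 or both of these libraries and were compared. Both lines were grown in DMEM with 10% serum and neither control received the CDK12 and CDK13 inhibitor THZ531 that the series was designed to study. The other libraries were Hep3B and Huh7 at 250 and 500 nM THZ531, and SNU449, a further liver cancer line, untreated and at the same doses. The labels give 48 h of treatment for every treated library in one place and 24 h for Hep3B and Huh7 in another. Each line and dose has 1 library, and no label says how many cultures stand behind it. The comparison therefore has no replicate, no spread between samples and no test: each ratio carries a 95% interval for counting error only, and differences between cultures of one line are not in it.

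Hepatocytes secrete most plasma proteins, among them albumin, apolipoproteins, clotting factors and complement, and also handle lipids, amino acids, metals and foreign compounds. In the fetus the liver makes alpha-fetoprotein, which the adult organ shuts down and many liver tumours make again. Both lines are widely used as models of hepatocellular carcinoma. Hep3B is known to carry integrated hepatitis B virus DNA, whereas Huh7 is known for supporting hepatitis C virus replication.

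Hepatocyte identity was checked first. All 14 hepatocyte markers had at least 100 counts in both lines, and they summed to 38299.3 CPM (counts scaled to a common library total) in Hep3B and 14582 in Huh7, against 14.5 in untreated SNU449. ALB alone gave 20670 CPM of the Hep3B sum and 2857 CPM of the Huh7 sum. The median log2 ratio of Hep3B over Huh7 was -0.19 over the 14 markers, with 6 above 0 and 8 below. HNF4A, the nuclear receptor that maintains the hepatocyte state, had 5706 counts in Hep3B and 4514 in Huh7, but 2 in SNU449. Markers of other liver cells were looked at as whole lists. None of 7 endothelial markers found in the table reached 100 counts, their sum was 0.534 CPM in Hep3B and 4.08 CPM in Huh7, and KDR and TEK had 0 counts in both. Of 7 immune markers found, CD3E, CD163 and NKG7 had 0 counts in both, PTPRC had 0 and 12, and CD14 had 144 and 21. The immune list summed to 91.5 and 153 CPM, most of it LYZ, lysozyme, at 1738 and 2180 counts. The fibroblast and stellate list summed to 30.1 CPM in Hep3B and 406 CPM in Huh7, with DCN at 1 count in each line and THY1 at 0. Of its 5 compared members 4 were at least 4-fold higher in Huh7 and 0 in Hep3B. That is 80% past 4-fold, against 10.9% of all compared genes. The median log2 ratio was -4.72 untreated, and -2.66 and -3.23 in the libraries at 250 and 500 nM. The 4 included LUM, at 55 counts in Hep3B and 1018 in Huh7, and the collagen genes COL1A1 and COL1A2. The cholangiocyte and progenitor list was high in both lines, at 3145 and 3094 CPM, and also in untreated SNU449, at 2391 CPM. Of its 10 markers 7 were compared, among them KRT19, a bile duct keratin, at 5610 and 4281 counts, while KRT7, another, had 40 and 2. The part of other cell states in the ratios was not tested. The total count was 20657610 in Hep3B and 14423043 in Huh7, and the mitochondrial chromosome took 4.28% and 3.85% of it.

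At 4-fold or more, 1232 of the 11318 compared genes stood apart (10.9%), 602 of them higher in Hep3B (5.32%) and 630 higher in Huh7 (5.57%). A further 1851 genes differed by 2-fold to 4-fold, and 8235 genes (72.8%) by less than 2-fold. The median log2 ratio of Hep3B over Huh7 was 0.08 over all compared genes, with quartiles of -0.47 and 0.62. Both sets reached far: 659 genes differed by 10-fold or more, 323 higher in Hep3B and 336 higher in Huh7. In 142 of the genes higher in Hep3B the Huh7 library held at most 3 counts, and the reverse was true of 115 of the genes higher in Huh7. For scale, the same rule called 0 of 10245 genes between SNU449 at 250 nM and its control (0%) and 1 of 10387 at 500 nM (0.00963%). Treatment is part of those 2 numbers and culture-to-culture variation in Hep3B and Huh7 is not. The share called was 32.8% among genes with a mean under 10 CPM, where 1637 genes lay, and 3.09% among the 1842 genes between 100 and 300 CPM. The minimum of 100 counts lets genes with a low mean in mainly through their higher library, which raises the first share by rule. Genes that are not protein-coding were called in 20.2% of 415, protein-coding genes in 10.5% of 10903, with the 2 classes not matched for level. In bulk RNA, fewer cells with a transcript and less of it per cell cannot be told apart, which holds for every ratio given here.

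**Figure D1:**
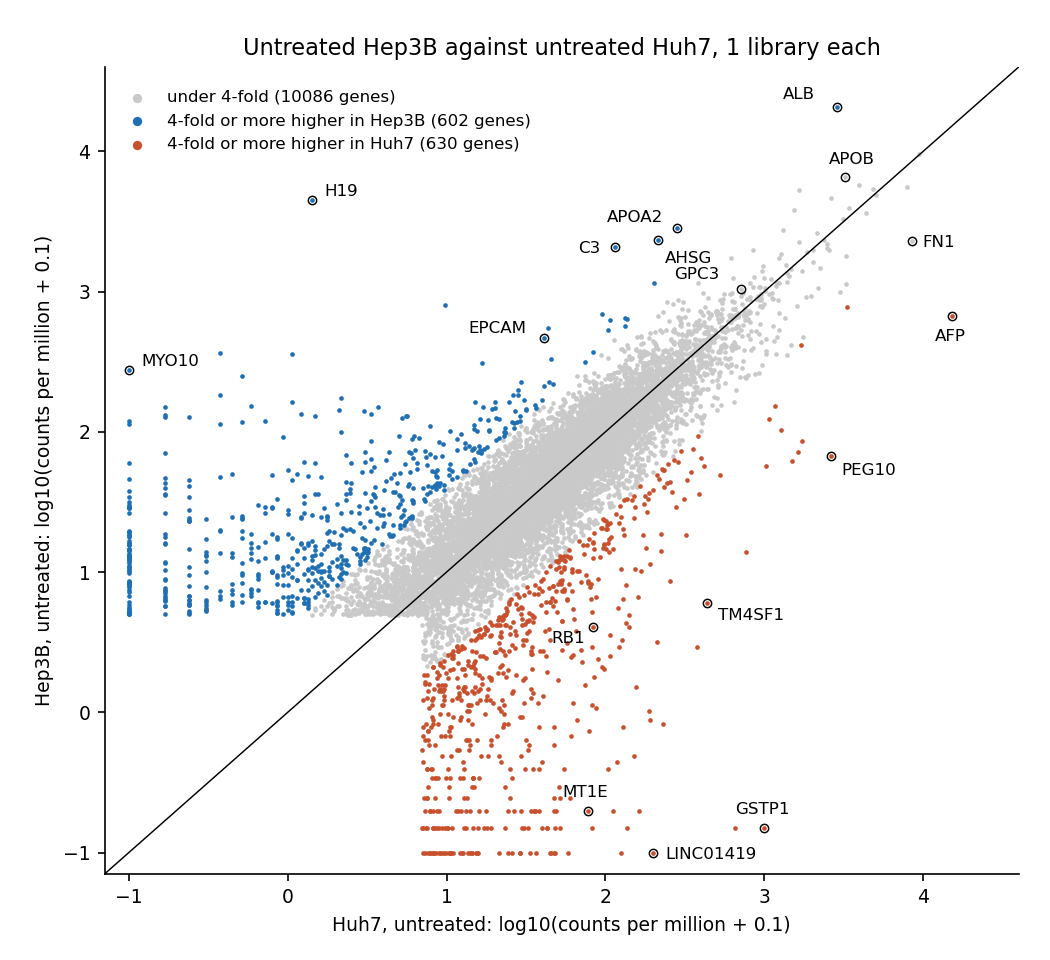
Each point is 1 of 11318 compared genes, with log10 of CPM plus 0.1 in untreated Huh7 on the x axis and in untreated Hep3B on the y axis. The black line marks equal levels, blue points are the 602 genes at least 4-fold higher in Hep3B and red points the 630 genes at least 4-fold higher in Huh7. ALB and H19 stand above the line and AFP, PEG10 and GSTP1 below it.

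The secretory output of the lines was split between albumin and alpha-fetoprotein, the adult and fetal carrier proteins of plasma. ALB had 425754 counts in Hep3B and 41331 in Huh7, a 7.23-fold difference (7.16 to 7.31), and AFP had 13725 in Hep3B and 218164 in Huh7, 22.6-fold (22.2 to 23.03) the other way. ALB was the most counted gene of the Hep3B library, with 2.06% of all counts (2.05 to 2.07, exact binomial interval) against 0.287% (0.284 to 0.289) in Huh7. AFP took 0.0664% (0.0653 to 0.0676) and 1.51% (1.51 to 1.52) in the same order. Per kilobase of exon, ALB ran at 6121 CPM and AFP at 204 CPM in Hep3B, while in Huh7 ALB ran at 846 CPM and AFP at 4628 CPM, so the order of the pair was opposite in the lines. The order within each line also held in its treated libraries. In Hep3B, ALB had 281911 counts at 250 nM and 336300 at 500 nM against 7226 and 9603 for AFP. In Huh7, ALB had 53640 and 49339 counts against 189949 and 205372 for AFP.

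The genes lie side by side on chromosome 4, ALB (ENSG00000163631) from 73397114 to 73421412 and AFP (ENSG00000081051) from 73431138 to 73456174 on GRCh38, both on the plus strand. The 250 bases before each RefSeq start (GRCh38.p14, chr4:73404037-73404286 for ALB and chr4:73435971-73436220 for AFP, plus strand) are shown for the opposed pair. Promoter activity was not measured. Capitals mark GTTAAT, searched on both strands, a hexamer common to both windows.
ALB: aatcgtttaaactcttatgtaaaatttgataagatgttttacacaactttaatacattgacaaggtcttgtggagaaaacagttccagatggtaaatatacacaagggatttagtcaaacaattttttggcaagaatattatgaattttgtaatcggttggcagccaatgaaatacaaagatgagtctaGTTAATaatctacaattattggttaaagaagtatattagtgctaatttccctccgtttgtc
AFP: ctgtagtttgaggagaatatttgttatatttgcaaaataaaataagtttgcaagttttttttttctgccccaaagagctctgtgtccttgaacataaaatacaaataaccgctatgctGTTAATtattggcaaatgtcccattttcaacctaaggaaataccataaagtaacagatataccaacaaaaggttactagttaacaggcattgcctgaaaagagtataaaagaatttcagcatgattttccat
Each window holds 1 match, and 6.22% of 27305 human promoters of this length hold at least 1.

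Other plasma proteins divided between the lines in the same way. Of 23 compared carrier and protease inhibitor genes (30 listed), 5 were past 4-fold in Hep3B and 5 in Huh7, with a median log2 ratio of -0.22. Called genes were 43.5% of those compared, against 10.9% of all compared genes. Higher in Hep3B were GC, the vitamin D carrier, at 11329 against 624 counts (12.7-fold, 11.8 to 13.8), and AHSG, the mineral-binding fetuin-A, at 47973 against 3119 (10.8-fold, 10.4 to 11.2). RBP4, the retinol carrier, stood at 13214 against 1983 counts (4.68-fold, 4.46 to 4.91). Higher in Huh7 were SERPING1, the inhibitor of complement C1, at 177 against 3694 counts (29.7-fold, 25.6 to 34.8), and A2M, the broad protease trap, at 16101 against 47663 (4.22-fold, 4.14 to 4.29). SPINK1, a trypsin inhibitor used as a liver tumour marker, had 63 counts in Hep3B and 3070 in Huh7 (69.4-fold, 54.1 to 90.5). SERPINA1, the main elastase inhibitor, and TTR, the thyroxine carrier, differed by 1.51-fold and 1.16-fold.

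Of 31 compared transcription factors of the hepatocyte programme, 3 were past 4-fold, all higher in Huh7, and the median log2 ratio was -0.40. That is 9.68% of the list, near the 10.9% of all compared genes. NR1I2, the xenobiotic receptor PXR, had 0 counts in Hep3B and 157 in Huh7. With the 0 set to a floor of 3 counts it was 74.5-fold lower in Hep3B, with an interval from 59.9 up. CREB3L3, a membrane-bound factor of lipid metabolism, was 4.84-fold (3.86 to 6.10) higher in Huh7, and GATA6 was 4.05-fold (3.65 to 4.49) higher. GATA6 sits at the threshold, and its log2 ratio was -0.44 and -0.34 in the libraries at 250 and 500 nM.

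**Figure D2:**
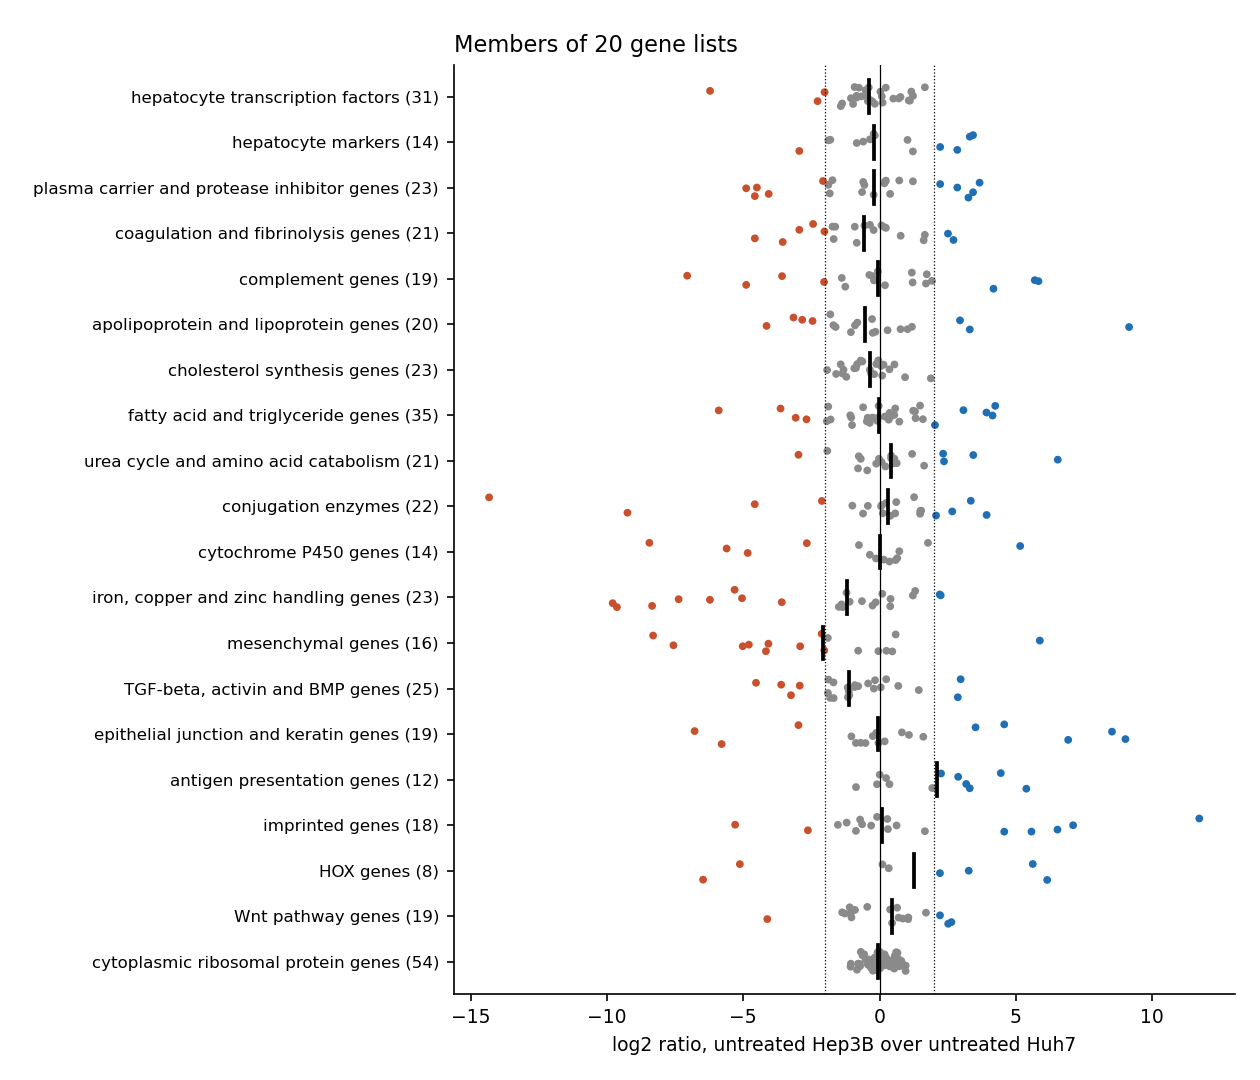
Each point is a compared member of 1 of 20 gene lists (number of compared members in brackets), placed on the x axis by its log2 ratio of untreated Hep3B over untreated Huh7, with vertical scatter added only to separate points. Black bars are list medians, dotted lines mark 4-fold, blue is at least 4-fold higher in Hep3B and red in Huh7. All 54 ribosomal protein genes lie inside the dotted lines, while the mesenchymal list centres at -2.07 and the antigen presentation list at 2.10.

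Of 19 compared complement genes (30 listed), 3 were past 4-fold in Hep3B and 4 in Huh7 (36.8% called, against 10.9% of all compared). C3, the central component on which all activation routes converge, had 43065 counts in Hep3B and 1666 in Huh7 (18.2-fold, 17.3 to 19.1). It overlaps GPR108, annotated on the same strand, which had 2423 and 849 counts. CFI, the protease that inactivates C3b, was 51.9-fold (32.3 to 89.4) higher in Hep3B at 1256 against 17 counts. C8G, a chain of the membrane attack complex, was 57.0-fold (26.0 to 156) higher in Hep3B, and CLU, a fluid-phase inhibitor of that complex, was 4.10-fold (4.002 to 4.20) higher in Huh7.

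Clotting genes leaned to Huh7, with 2 of 21 compared past 4-fold in Hep3B and 5 in Huh7 (33.3% called, against 10.9% of all compared). The median log2 ratio was -0.55. FGB, the beta chain of fibrinogen, had 3122 counts in Hep3B and 16870 in Huh7 (7.69-fold, 7.41 to 7.997). The other fibrinogen chains FGA and FGG differed less, with log2 ratios of -0.84 and -0.35, although the 3 genes adjoin each other and their products assemble in equal numbers. F7, which starts clotting with tissue factor, was 5.71-fold (4.92 to 6.64) higher in Hep3B. Its partner F3, tissue factor, had 113 counts in Hep3B and 430 in Huh7, a log2 ratio of -2.44. SERPINC1, antithrombin, had 8 counts in Hep3B and 134 in Huh7 (23.9-fold, 11.8 to 56.4).

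Lipoprotein genes were found on both sides. APOB, the structural protein of very low density lipoprotein, was the most counted nuclear gene of Hep3B after ALB, at 135772 counts against 46765 in Huh7 (2.04-fold, 2.02 to 2.06). MTTP, the transfer protein that loads lipid onto APOB, stood the other way at 374 counts in Hep3B and 4649 in Huh7 (17.7-fold, 15.9 to 19.7). APOA2, the second protein of high density lipoprotein, was 9.94-fold (9.63 to 10.3) higher in Hep3B, whereas APOA1, its first, was 3.50-fold (3.33 to 3.67) higher in Huh7. ANGPTL8, a regulator of lipoprotein lipase listed as C19orf80, had 2444 counts in Hep3B and 0 in Huh7. At the floor of 3 counts that is 572-fold higher in Hep3B, with an interval from 465 up. However, C19orf80 lies inside DOCK6 on the other strand, and it had 24 and 31 counts in the treated Hep3B libraries. In the whole list, 3 of 20 compared genes were past 4-fold in Hep3B and 4 in Huh7 (35% called, against 10.9% of all compared).

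Of 35 compared fatty acid and triglyceride genes, 5 were past 4-fold in Hep3B and 4 in Huh7 (25.7% called, against 10.9% of all compared). The median log2 ratio was -0.03. MLXIPL, the glucose-sensing factor ChREBP, had 1919 counts in Hep3B and 71 in Huh7 (18.98-fold, 15.0 to 24.4). PKLR, the liver pyruvate kinase from the glycolysis list and a classic target of that factor, had 257 against 14 (12.9-fold, 7.54 to 23.9). CPT1A, which admits fatty acids into mitochondria, was 17.7-fold (12.6 to 25.6) higher in Hep3B, and PNPLA3, a lipid droplet enzyme, 8.45-fold (6.33 to 11.5). In Huh7, FADS2, the delta-6 desaturase, was 12.4-fold (11.9 to 12.98) higher at 18525 against 2127 counts, and FABP1, the liver fatty acid carrier, 8.44-fold (7.09 to 10.1). None of the 23 cholesterol synthesis genes reached 4-fold, with a median log2 ratio of -0.36 and 16 of 23 below 0. Over all compared genes the median was 0.08.

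Among 21 compared genes of urea synthesis and amino acid breakdown, 4 were past 4-fold in Hep3B and 1 in Huh7. Together they were 23.8% of those compared, against 10.9% of all compared genes. HAL, which opens histidine breakdown, had 2652 counts in Hep3B and 20 in Huh7 (93.1-fold, 60.2 to 153). MAT1A, the adult liver enzyme that makes S-adenosylmethionine, was 10.9-fold (7.85 to 15.4) higher in Hep3B, while MAT2A, the form of dividing cells, had 9203 and 6548 counts and a log2 ratio of -0.02. HPD of tyrosine breakdown and CBS of transsulfuration were 5.16-fold (3.55 to 7.71) and 5.05-fold (4.18 to 6.14) higher in Hep3B. NAGS, which makes the activator of the urea cycle, was 7.86-fold (5.11 to 12.6) higher in Huh7.

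Detoxifying enzymes held the steepest ratio towards Huh7 among the named genes. GSTP1, the pi-class glutathione transferase, had 1 count in Hep3B and 14447 in Huh7, a ratio of 20573 with a counting interval of 3692 to 812638. At 250 and 500 nM, Hep3B held 6 and 3 counts where Huh7 held 12636 and 11376, and SNU449 had 0 in its control. GSTP1 (ENSG00000084207) lies on chromosome 11 from 67583595 to 67586660, and its promoter is a textbook target of methylation at CG sites in cancer, which no file here measured. The 250 bases before the RefSeq start (chr11:67583562-67583811, plus strand) are shown with each CG in capitals.
GSTP1: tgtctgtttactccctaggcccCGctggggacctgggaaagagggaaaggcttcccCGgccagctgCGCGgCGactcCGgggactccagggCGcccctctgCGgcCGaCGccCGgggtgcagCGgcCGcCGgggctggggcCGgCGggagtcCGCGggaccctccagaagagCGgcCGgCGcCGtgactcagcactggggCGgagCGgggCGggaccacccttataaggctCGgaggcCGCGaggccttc
The window holds 28 CG sites, and 15.5% of 27305 human promoters, those of noncoding genes included, hold as many or more. Over the compared protein-coding genes alone the median was 21 and the upper quartile 28, but only 78.0% of them had a promoter, so that comparison is void.

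Of 22 compared conjugation enzymes, GSTP1 included, 4 were past 4-fold in each direction (36.4% called, against 10.9% of all compared). GSTM1 had 1 count in Hep3B and 428 in Huh7, and its near copy GSTM2 had 65 and 86. Summed over the pair, since reads may be split between them, Huh7 was 11.1-fold (8.57 to 14.6) higher. GSTA1 and GSTA2 together were 23.2-fold (15.5 to 36.3) higher in Huh7. Hep3B was higher in SULT1A1 and SULT1A2, sulfotransferases of phenols, by 7.13-fold (5.67 to 9.07) as a sum. Of 14 compared cytochrome P450 genes (41 listed) 1 was past 4-fold in Hep3B and 4 in Huh7 (35.7% called, against 10.9% of all compared). Those higher in Huh7 included CYP26B1, which clears retinoic acid, at 415 and 1855 counts (6.37-fold, 5.72 to 7.10). CYP3A5, a major drug oxidase, had 8 and 90 counts and so missed the minimum of 100.

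Metallothioneins, small cysteine-rich proteins that bind zinc and copper, formed a run of 7 neighbouring called genes, a length that 1 other run shared. The 7 compared members MT2A, MT1E, MT1M, MT1A, MT1F, MT1G and MT1X lie on chromosome 16 between 56608199 and 56750276 and were all higher in Huh7. Together they held 88 counts in Hep3B and 5057 in Huh7, or 4.27 against 349.6 CPM. The sum was 81.8-fold (66.3 to 102) higher in Huh7, and 25.8-fold and 43.7-fold higher at 250 and 500 nM. The copies are close in sequence, so the sum is firmer than any member. MT2A had 66 counts in Hep3B and 1850 in Huh7, MT1X 14 and 325, and MT1G 1 and 623. Untreated SNU449 held 7878 counts over the 7 genes, so by the sum Hep3B was the line with little of them. Single members differed: SNU449 had 1173 counts of MT1E, but 0 of MT1F, 0 of MT1M and 1 of MT1G. The promoters found for this run, MT2A (chr16:56608334-56608583) and MT1X (chr16:56682220-56682469, both plus strand), are shown with capitals on TGCACNC and TGCGCNC, searched on both strands, the core that the zinc-sensing factor MTF1 binds.
MT2A: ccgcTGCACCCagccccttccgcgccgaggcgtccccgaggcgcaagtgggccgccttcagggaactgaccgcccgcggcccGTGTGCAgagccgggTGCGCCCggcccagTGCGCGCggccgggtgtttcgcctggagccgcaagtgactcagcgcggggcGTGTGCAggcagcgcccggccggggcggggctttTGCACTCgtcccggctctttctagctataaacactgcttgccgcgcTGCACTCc
MT1X: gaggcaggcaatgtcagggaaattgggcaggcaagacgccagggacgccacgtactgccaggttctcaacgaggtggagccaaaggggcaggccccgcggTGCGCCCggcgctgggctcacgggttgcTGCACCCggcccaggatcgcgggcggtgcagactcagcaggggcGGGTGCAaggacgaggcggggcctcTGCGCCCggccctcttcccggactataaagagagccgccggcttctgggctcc
The MT2A window holds 7 matches and the MT1X window 4, where 24.7% of promoters hold at least 1 and 6.51% at least 2. Beyond the run, HFE and HFE2 (hemojuvelin), which raise hepcidin, were 4.74-fold (3.41 to 6.76) and 4.62-fold (3.16 to 6.98) higher in Hep3B, and TFR2, another sensor of that system, was 12.03-fold (8.05 to 18.6) higher in Huh7. HAMP, hepcidin itself, had 64 and 104 counts.

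Huh7 carried more RNA of connective tissue type, with 9 of 16 compared mesenchymal genes past 4-fold, 1 in Hep3B and a median log2 ratio of -2.07. Called genes were 62.5% of those compared, against 10.9% of all compared genes. COL1A2, a chain of type I collagen, had 15 counts in Hep3B and 3344 in Huh7 (317-fold, 192 to 568), COL1A1 had 45 and 1025 (32.4-fold, 24.1 to 44.8), and SPARC, a collagen-binding matrix protein, 14 and 1859 (189-fold, 112 to 347). TAGLN, an actin-binding protein of smooth muscle, was 18.0-fold (17.0 to 19.1) higher in Huh7, and ZEB1, a repressor of epithelial genes, 7.53-fold (6.05 to 9.46). VIM, the mesenchymal intermediate filament, was level at 666 and 686 CPM, and SNU449 had 106085 counts of it. In treated cells TAGLN and ZEB1 drew closer, to log2 ratios of -1.33 and -0.51 at 250 nM, while COL1A2 stayed at -7.88. Contractile genes among the steepest graded ratios were TPM2, a tropomyosin, at 285 and 11160 counts (55.8-fold, 49.6 to 62.9), and MYH9, non-muscle myosin, at 1284 and 21518 (23.9-fold, 22.6 to 25.3). LGALS1, galectin-1, went the other way at 1092 and 13 counts (59.0-fold, 34.4 to 111).

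Of 19 compared epithelial junction and keratin genes, 5 were past 4-fold in Hep3B and 3 in Huh7 (42.1% called, against 10.9% of all compared). The median log2 ratio was -0.04. Higher in Hep3B were EPCAM, an adhesion protein of epithelial and progenitor cells, at 9683 against 591 counts (11.5-fold, 10.6 to 12.5), and ESRP1, an epithelial splicing factor, at 2767 against 16 (121-fold, 74.6 to 213). The keratins KRT23, at 7379 against 14 counts, and KRT80, at 742 against 1, stood with them. Higher in Huh7 were CLDN6, a fetal claudin, at 29 against 2247 counts (110.3-fold, 76.6 to 165), and CDH17, the liver-intestine cadherin, at 0 against 117. CDH1, E-cadherin, was 2.12-fold (1.98 to 2.26) higher in Hep3B. The main liver keratins KRT8 and KRT18 were 1.91-fold (1.89 to 1.93) higher in Huh7 as a sum, and 1.34-fold and 1.05-fold higher in Hep3B at 250 and 500 nM, so that pair changed sides.

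Of the TGF-beta, activin and BMP genes, 19 of 25 compared lay below 0 and the median log2 ratio was -1.11. The median over all compared genes was 0.08. BMP2, a ligand that raises hepcidin in liver, had 600 counts in Hep3B and 4006 in Huh7 (9.51-fold, 8.72 to 10.4), SMAD6, an inhibitor induced by BMP signals, was 12.2-fold (10.8 to 13.8) higher in Huh7, and FST, follistatin, which binds activins, 7.61-fold (6.70 to 8.67). The activin chains INHBE and INHBB were 7.87-fold (6.74 to 9.24) and 7.33-fold (5.83 to 9.32) higher in Hep3B. Activin chains and the activin-binding follistatin therefore stood on opposite sides.

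Antigen presentation was the list with the highest median among those with 10 or more compared genes, at 2.10, with 6 of 12 past 4-fold in Hep3B and 0 in Huh7, against 5.32% and 5.57% of all compared genes. Of the classical class I chains, HLA-B had 358 counts in Hep3B and 6 in Huh7 (41.9-fold, 19.1 to 115), and HLA-C had 707 and 50 (9.93-fold, 7.45 to 13.5), both uncertain since reads may be shared between class I genes. B2M, their common light chain, differed by 1.29-fold (1.23 to 1.35). TAP2, which pumps peptides to class I, was 4.78-fold (3.45 to 6.78) higher in Hep3B and TAP1, its partner, had a log2 ratio of 0.24. MICA, a stress ligand read by natural killer cells, had 498 and 16 counts (21.9-fold, 13.3 to 38.5), and CD74, the invariant chain of class II, 1369 and 106 (9.07-fold, 7.44 to 11.2). Of 17 compared innate sensing and interferon genes, 4 were past 4-fold in Hep3B and 2 in Huh7 (35.3% called, against 10.9% of all compared). The median log2 ratio was -0.12. IFIH1, the RNA sensor MDA5, was 6.54-fold (4.35 to 10.2) and TICAM1, the adaptor of TLR3, 4.25-fold (3.63 to 4.99) higher in Hep3B. MAVS, the adaptor that IFIH1 uses, had a log2 ratio of -0.12. GBP1, of the same list, had 6 and 107 counts, 25.4-fold (11.3 to 70.7) higher in Huh7.

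Growth factor pathways differed in single receptors and ligands. FGFR2 had 2328 counts in Hep3B and 4 in Huh7 (409-fold, 159 to 1501), while FGFR4, the main liver FGF receptor, and its coreceptor KLB had log2 ratios of -0.31 and -0.51. FGF19, the ligand of that pair, was 7.36-fold (6.07 to 8.99) higher in Huh7. EREG, an EGF receptor ligand, was 48.2-fold (29.1 to 86.4) higher in Hep3B at 1029 against 15 counts, and EGFR had a log2 ratio of -0.54. IGF1R and GHR, receptors of insulin-like growth factor and growth hormone, were 5.94-fold (5.10 to 6.95) and 7.32-fold (6.13 to 8.82) higher in Hep3B, and IGFBP2, a binding protein in that axis, was 119-fold (54.5 to 327) higher in Huh7. Of Wnt genes, the secreted inhibitors DKK1 and NOTUM were 5.74-fold (5.52 to 5.96) and 6.23-fold (4.26 to 9.41) higher in Hep3B, and the receptor FZD7 was 17.4-fold (13.01 to 23.7) higher in Huh7. AXIN1, a scaffold of beta-catenin destruction and a known tumour suppressor of liver cancer, was 1.56-fold (1.36 to 1.801) higher in Hep3B.

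**Figure D3:**
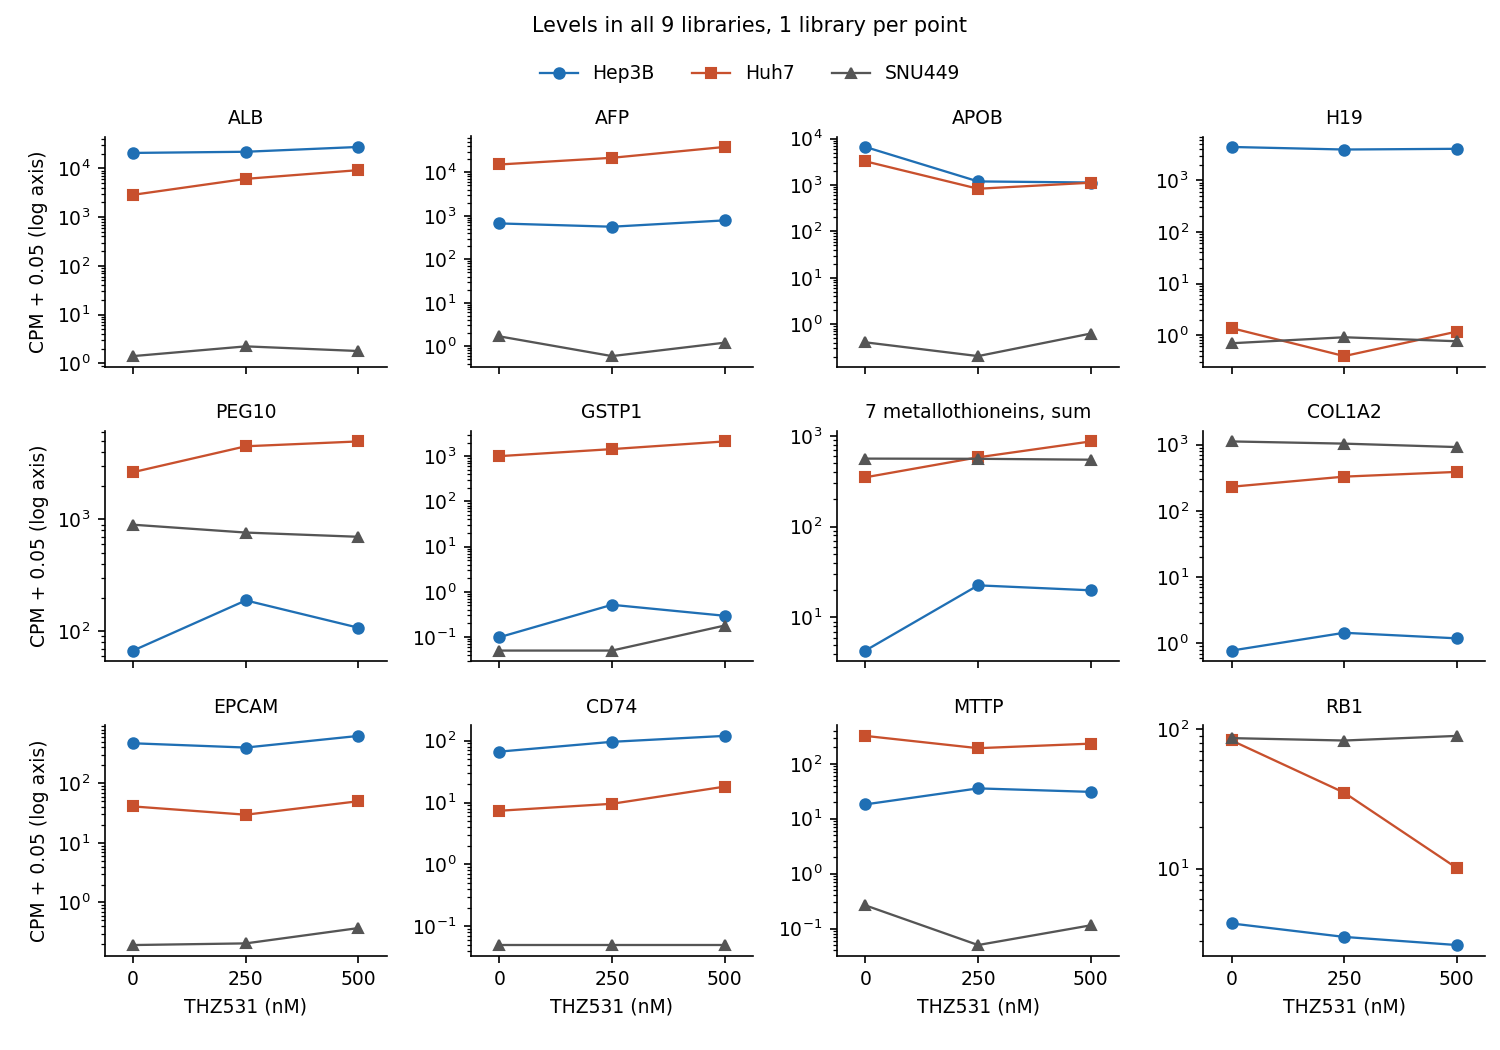
Each panel gives CPM plus 0.05 on a log axis for 1 gene or sum of genes, against THZ531 dose on the x axis, with 1 library per point in Hep3B, Huh7 and SNU449. ALB, H19, EPCAM and CD74 were higher in Hep3B than in Huh7 at every dose. AFP, PEG10, GSTP1, the metallothionein sum, COL1A2, MTTP and RB1 were higher in Huh7 at every dose, and APOB met at 500 nM.

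Fetal and imprinted genes, the latter active from 1 parental copy, gave the widest difference upward. H19, a maternally expressed noncoding RNA of fetal liver on chromosome 11 (1995163 to 2001470, minus strand, ENSG00000130600), had 92256 counts in Hep3B and 19 in Huh7, a ratio of 3409.8 (2183 to 5664). Its neighbour IGF2, the paternally expressed growth factor, was abundant in both, at 54015 and 31095 counts, 1.22-fold (1.20 to 1.24) higher in Hep3B, and higher in Huh7 at 250 and 500 nM with log2 ratios of -1.17 and -1.66. PEG10, a paternally expressed gene derived from a retroelement, stood the other way at 1383 and 38252 counts (39.4-fold, 37.3 to 41.6). Hep3B counts alone were found for PEG3, at 588 against 0 in Huh7, and for SNRPN, at 395 against 0, with SNHG14, the long transcript that overlaps SNRPN, at 2331 against 0. CDKN1C, a cell cycle inhibitor and imprinted gene, was 47.7-fold (33.3 to 70.9) higher in Hep3B. Over the imprinted list 5 of 18 compared were past 4-fold in Hep3B and 2 in Huh7 (38.9% called, against 10.9% of all compared). GPC3, the glypican used as a liver cancer marker, was high in both at 21467 and 10279 counts, 1.47-fold (1.43 to 1.502) higher in Hep3B. The HOX genes divided by cluster: HOXA5, HOXA7 and HOXA10 were among those past 4-fold in Hep3B, and HOXC6 and HOXC10 in Huh7, with 8 of 39 genes compared.

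RB1, the tumour suppressor that holds back entry into the cell cycle, had 82 counts in Hep3B and 1206 in Huh7 (20.9-fold, 16.7 to 26.5). LPAR6, which lies within RB1, had 62 and 309, and the neighbour ITM2B had 2469 and 4444. CCND1, the cyclin that turns off RB1 with its kinase, was 2.88-fold (2.75 to 3.02) higher in Huh7, and CDKN2A, which blocks that kinase, 2.11-fold (1.93 to 2.32) higher in Hep3B. The targets of the compound used in the series had ratios under 2-fold. CDK12 was 1.804-fold (1.71 to 1.90) and CDK13 1.93-fold (1.77 to 2.09) higher in Hep3B. CCNK, their cyclin, was 1.03-fold (0.943 to 1.12) higher in Huh7, an interval that takes in equal levels. The median log2 ratio of the 3 genes was 0.85, where the upper quartile of all compared genes was 0.62.

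Genes counted in one line and close to 0 in the other numbered 29 each way when 500 or more counts were set against at most 3. In Hep3B the most counted was MYO10, a motor of filopodia, with 5681 against 0 counts. At the floor of 3 counts it was 1329.8-fold higher, with an interval from 1081 up. NRXN3, a synaptic adhesion protein, had 3070 against 1, a ratio of 2156 (387 to 85179.7), and CACNA1H, a calcium channel, 2708 against 1. MSN, which ties the membrane to actin, had 2624 against 2, a ratio of 921 (255 to 7612), and PTK7, a pseudokinase of planar polarity, 2619 against 1. In Huh7, after GSTP1, came the noncoding LINC01419 with 2874 against 0 counts, VCAN, the proteoglycan versican, with 2353 against 2, and GALNT5, which starts O-linked glycans, with 1990 against 1. EMC10, a subunit of the complex that inserts membrane proteins, had 1612 against 2, and SULF2, which trims heparan sulfate, 1191 against 1. SNU449 shared some of these and not others, with 7830 counts of MYO10, 16570 of VCAN, 0 of SULF2 and 1 of GALNT5. Over all called genes SNU449 lay under 1 CPM for 36.2% of those higher in Hep3B and 38.3% of those higher in Huh7. The same share over all compared genes was not computed, so these values do not set the called genes apart. MIR6723, as the table names an unprocessed pseudogene, had 16560 and 139 counts and is uncertain, since reads of a near-identical copy can land there.

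Differences also grouped by position. Medians over compared protein-coding genes ran by chromosome from -0.54 on chromosome 9 and -0.52 on chromosome 8 to 0.50 on chromosome 17 and 0.65 on chromosome 21. Over 282 windows of 10 Mb with at least 10 compared genes, 90% of medians lay between -0.82 and 0.90. The lowest was chromosome 8 at 60 to 70 Mb, at -1.45, then the X chromosome at 30 to 40 Mb, at -1.38, and chromosome 8 at 20 to 30 Mb, at -1.37, where 48 of 48 genes were below 0. The highest was the X chromosome at 60 to 70 Mb, at 5.84 with 8 of 10 genes past 4-fold in Hep3B, followed by chromosome 13 at 110 to 120 Mb and chromosome 6 at 10 to 20 Mb, at 1.22 each. On chromosome 13 the windows turned from -1.07 at 70 to 80 Mb to 1.04 at 90 to 100 Mb. DNA copy number was not measured.

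**Figure D4:**
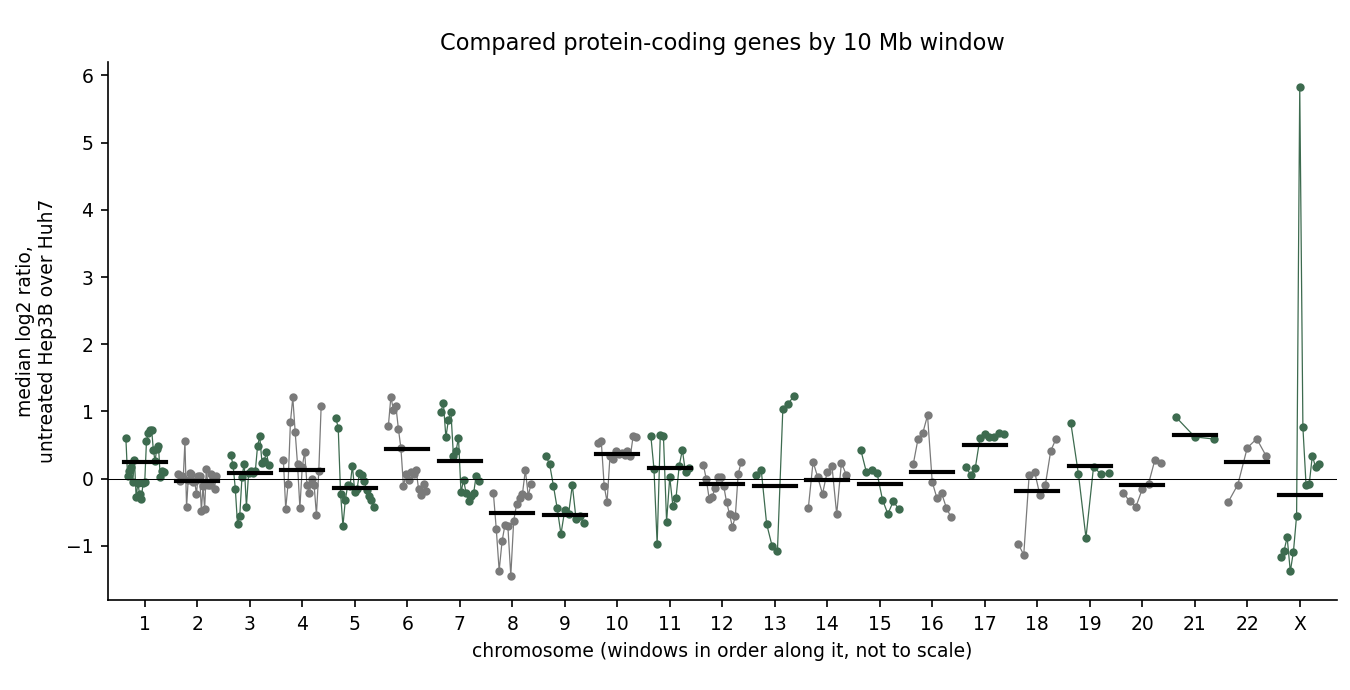
Each dot is the median log2 ratio of untreated Hep3B over untreated Huh7 of the compared protein-coding genes in a 10 Mb window with at least 10 such genes, in order along each chromosome on the x axis, and black bars are chromosome medians. Chromosomes 8 and 9 lie under 0, 17 and 21 above it, and 1 window on the X chromosome stands at 5.84.

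Runs of 4 or more neighbouring called genes numbered 8, with 4 in each direction. Besides the metallothioneins, 7 neighbours on the X chromosome (80670854 to 97604997) were higher in Hep3B, with BRWD3 at 950 against 0 counts, APOOL at 645 against 0 and CHM, the Rab escort protein, at 710 against 2. A second X run of 5 genes (57591652 to 65034713) had SPIN4, AMER1 and ZC4H2 at 0 counts in Huh7, and AMER1, a brake on beta-catenin, had 293 in Hep3B. The X chromosome was not low throughout in Huh7: the median log2 ratio over its 345 compared protein-coding genes was -0.24. Of these, 38 were past 4-fold in Hep3B and 29 in Huh7, and at 40 to 50 Mb 49 of 49 genes were below 0. ATRX, a chromatin remodeler, had 2023 and 1925 counts (log2 ratio -0.44), and PGK1, of glycolysis, 6064 and 2496 (0.77). A run at the tip of X (2691179 to 2968310) was higher in Huh7, with CD99 at 495 against 2184 counts and ARSE at 0 against 1807. On chromosome 11 (307631 to 417455) the antiviral genes IFITM2 and IFITM3 were 6.34-fold (5.67 to 7.10) higher in Hep3B as a sum, next to B4GALNT4 and SIGIRR. On chromosome 14 (31291791 to 32159728) HEATR5A, DTD2, NUBPL and ARHGAP5 were higher in Huh7. On chromosome 7 (192969 to 786475) FAM20C, PDGFA, PRKAR1B and HEATR2 were higher in Hep3B, and on chromosome 8 (23297189 to 24359018) LOXL2, ENTPD4, SLC25A37 and ADAM28 in Huh7.

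The treated libraries give the same pair of lines again, from cells that were not untreated and hence are no replicates. At 250 nM 720 of 9554 genes compared there were past 4-fold (7.54%), and at 500 nM 763 of 8745 (8.72%). Of the 602 genes higher in untreated Hep3B, 448 were past 4-fold the same way at 250 nM, 423 at 500 nM and 381 at both (63.3%), beside 4.3% and 5.61% of all genes compared at each dose. Of the 630 higher in untreated Huh7, 422, 403 and 364 (57.8%) were, beside 3.23% and 3.11%. The rules differ: the shares over all genes took only genes with at least 100 counts in 1 or both libraries at that dose. That minimum was not asked of the 602 and 630 genes at the doses. Hence 448 exceeds the 411 genes called higher in Hep3B among all genes compared at 250 nM. Where the other untreated library held at most 3 counts, 117 of 142 genes higher in Hep3B and 111 of 115 higher in Huh7 were past 4-fold at both doses. With at least 100 counts in both untreated libraries it was 50 of 118 and 55 of 183. The median log2 ratio of the genes higher in Hep3B was 3.45 untreated, 2.91 at 250 nM and 2.74 at 500 nM, and in the genes higher in Huh7 the median size was 3.50, 2.72 and 2.62. These genes were chosen by their untreated ratio, so smaller ratios are likely by rule in any other pair. The treated Hep3B and Huh7 libraries also had lower totals, from 5701981 to 13325709, where the floor of 3 counts allows only smaller bounds. The medians therefore show no dose pattern by themselves, and the parts of selection, depth and treatment in them were not tested. A gene with at most 3 counts in both treated libraries of a dose, or with a bound on the wrong side, has no ratio there, which left out 1 gene at 250 nM and 8 at 500 nM.

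**Figure D5:**
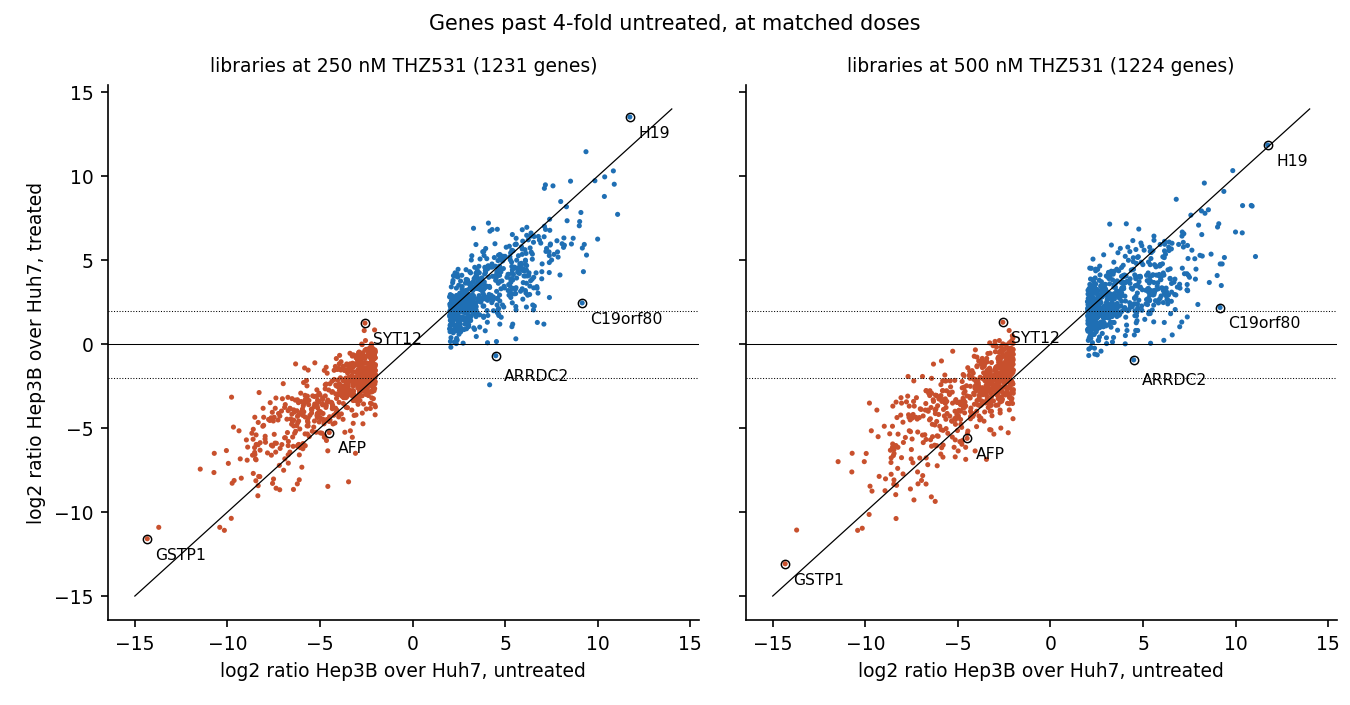
Each point is a gene past 4-fold in the untreated libraries, with its untreated log2 ratio of Hep3B over Huh7 on the x axis and its ratio at 250 nM (left) or 500 nM (right) on the y axis. The diagonal marks equal ratios and dotted lines mark 4-fold. H19, GSTP1 and AFP keep their side by a wide margin, while ARRDC2 and SYT12 are on the opposite side at both doses.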

How the data were processed

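The authors' deposited table holds raw counts per Ensembl gene for 9 libraries, whole numbers with differing totals, and no normalization. HISAT2, HTSeq and GRCh38 are named in the submitters' processing notes. No source used here gives their versions, the annotation release or the strand setting, although the labels call the libraries stranded, so reads of overlapping genes cannot be assigned by position alone. Counts of the 2 control libraries were scaled with TMM factors (edgeR 4.0.16, R 4.3.3). Each gene with 100 counts in 1 library got a ratio with a 95% Clopper-Pearson interval (scipy 1.17.1), counting error only, and was called at 4-fold. A count of 0 was replaced by a floor of 3 counts in that library, which makes the ratio a bound at that floor, also in medians. The counting interval of such a ratio starts lower and has no upper end. Totals of 20657610 and 14423043 put that floor at 0.145 and 0.208 CPM. No count model or p-value was used. The treated pairs were scaled likewise, each with its own factors. Exon lengths came from GENCODE release 29, in which 32344 genes (98.04%) were found, and promoter sequences from RefSeq. The ratio and its calls were tested on simulated data.

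Named genes followed a rule of size (the most counted on or off, the largest graded ratios and CPM differences, up to 4 called members per list, and a few set genes), and genes of runs, neighbours, partners and list members under 4-fold were added after their values were seen. The members and the 42 gene lists (1058 of 1086 entries found) were chosen with earlier results of these data known, so the counts of called list members are descriptions. Members under 100 counts in both libraries count in a list's size but were not compared. Alternatives were other scalings, minimums and folds, calls on the whole interval, thinning and the treated pairs. Some genes that the rule names are not reported here.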

Additional observations from a re-analysis of the deposited data

Results flagged for a closer look

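Among the genes past 4-fold untreated, 2 had counting intervals that excluded equal levels on one side untreated and on the other side at both doses. ARRDC2, an arrestin-like adaptor, had a log2 ratio of Hep3B over Huh7 of 4.50 (3.35 to 5.96) untreated, from 193 against 6 counts, and of -0.69 at 250 nM and -0.94 at 500 nM, from 67 against 74 and 63 against 53 counts. SYT12, a synaptotagmin, had -2.57 (-3.03 to -2.13) untreated, from 53 against 221 counts, and 1.25 and 1.30 at the doses, from 80 against 23 and 45 against 8. The difference was not tested, since each value rests on 1 library a side.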

How the results depend on the processing

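Scaling changed few calls. Total counts gave 1234 genes past 4-fold (1229 of them shared with the 1232), DESeq2 size factors (DESeq2 1.42.0) 1233 (1228 shared) and TMM over all 9 libraries 1233 (1181 shared), which moved every log2 ratio by 0.126 towards Hep3B and made 53.04% of calls higher in Hep3B in place of 48.9%. Under that scaling 7 of 41 list medians changed sign, none of them 0.5 or more in size. Calls whose whole interval lay past 4-fold numbered 1010, and thinning Hep3B to the Huh7 total gave 1149. The count rests on the threshold. With the number of genes higher in untreated Hep3B and of genes higher in untreated Huh7 in brackets, a minimum of 20 counts gave 2153 (973 and 1180), no minimum gave 3003 (1208 and 1795), and a minimum of 500 gave 530 (274 and 256). At 2-fold there were 3083 (1629 and 1454) and at 10-fold 659 (323 and 336). Of the 191 named genes, the direction of a called gene turned at a dose for ARRDC2 (-0.69 and -0.94), SYT12 (1.25 and 1.30) and SCN7A, whose log2 ratio was 4.16 untreated and, from 0 against 11 counts, -2.42 as a bound at 250 nM. Of the 15 list medians of 0.5 or more, 2 changed sign at 500 nM, immune markers and NRF2 targets. No paired analysis was possible because untreated Hep3B and untreated Huh7 have 1 library each and so share only 1 replicate number, and no library could be left out. A fit of line and dose over all 6 libraries of these lines would answer another question and was not run. Depth limits the low end: 3 counts in Huh7 are 0.208 CPM.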
